A study of Mus musculus with 18 samples.

Results

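Gene expression was compared between retinal pigment epithelium (RPE) of old mice that had received the reprogramming vector and RPE of untreated old mice. The comparison took in 8 of the 18 libraries of the study, the 4 titled Old-OSK and the 4 titled Old, chosen by their titles alone and read across all genes. Old OSK libraries came from aged mice treated with AAV2-tTA plus TRE-OSK, and Old libraries from aged mice that the labels record as having no treatment. The vector is an adeno-associated virus (AAV2) that delivers the tetracycline-controlled transactivator tTA, which switches on genes behind the TRE promoter, and OSK stands for Oct4 (gene symbol Pou5f1), Sox2 and Klf4. Old OSK therefore differed from Old by the injection, the virus, tTA and the OSK genes at once. A group of 3 libraries from aged mice given AAV2-tTA alone (Old control) is shown beside the results where it bears on that. The other 7 libraries of the study came from young mice. Strain, age in months, dose, interval after injection and the number of mice per library were not used here, and the labels do not say that replicates came from separate animals, so the p-values measure the spread between these libraries.

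The RPE is the pigmented sheet behind the photoreceptors. It regenerates the visual chromophore in the visual cycle, digests shed outer segments, transports ions and lactate, and lays down part of Bruch's membrane, the matrix beneath it. Oct4, Sox2 and Klf4 are transcription factors that, expressed together, can move a differentiated cell towards a pluripotent state, and short or partial expression of them is studied as a way to change the state of aged cells without loss of identity.

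The 8 libraries held between 18104828 and 32348136 counts, and 15944 genes had enough counts to be tested. All 10 RPE markers were detected in each library, with summed levels between 15170 and 47430 CPM (counts scaled to library size), and rod photoreceptor markers were present too, at 2557 to 17920 CPM summed. On the first principal component of log2 CPM over the 18 libraries, which held 46.5% of the variance, Old replicates 1 to 3 scored -18.5, 21.8 and 12.2, and Old OSK replicates 1 to 4 scored 73.2, 96, 69.7 and 45.7. Old replicate 4 scored 73.2 and lay among the Old OSK libraries. Its Pou5f1 level was that of the untreated group (0.359 CPM). Old OSK replicate 4 was the only one of the 8 libraries with an M in its library name and the only one with Y-linked transcripts above 4.45 CPM summed (156.8 CPM). Values and counts are therefore also given without one or the other of these libraries.

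Pou5f1, which encodes Oct4, measured 0.240, 0.157, 1.39 and 0.359 CPM in Old replicates 1 to 4 and 66.3, 97.4, 86.7 and 50.2 CPM in Old OSK replicates 1 to 4. Every Old OSK library lay far above every Old library. The log2 fold change was 7.03 ± 1.19 (SE, n = 4 and 4), with an adjusted p of 0.00712 in edgeR's quasi-likelihood test. Sox2 measured 4.79, 1.99, 2.65 and 3.80 CPM in Old and 84.5, 115, 103 and 70.0 CPM in Old OSK, again without overlap. It was 28.1-fold higher in Old OSK (log2 4.81 ± 0.47, edgeR adjusted p = 7.37e-05). The log2 differences of Pou5f1 and Sox2 without Old replicate 4 were 6.85 and 4.89 (adjusted p = 0.0148 and 0.000774), and without Old OSK replicate 4 they were 7.14 and 4.88 (adjusted p = 0.0108 and 0.000123). Reads from the vector and from the mouse's own copies of these genes were not separated.

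Klf4 transcript was already present in untreated RPE. It measured 11.7, 69.6, 44.0 and 216 CPM in Old and 432, 362, 334 and 155 CPM in Old OSK. Old replicate 4 exceeded Old OSK replicate 4, so the groups overlapped, and the log2 difference of 1.91 ± 0.71 did not pass (edgeR adjusted p = 0.21). Without Old replicate 4 it was 2.94 (adjusted p = 0.0234), and without replicate 4 of both groups 3.13 (adjusted p = 0.0131). Gsta4, a glutathione S-transferase that conjugates the lipid aldehyde 4-hydroxynonenal and is named in the title of the series, measured 448, 1133, 904 and 2287 CPM in Old and 3501, 2473, 2117 and 746 CPM in Old OSK. Old OSK replicate 4 was lower than 3 of the 4 Old libraries. The log2 difference was 0.89 ± 0.42 (edgeR adjusted p = 0.323), and it was 1.42 (adjusted p = 0.0469) without Old replicate 4 and 1.66 (adjusted p = 0.00517) without both.

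**Figure D1:**
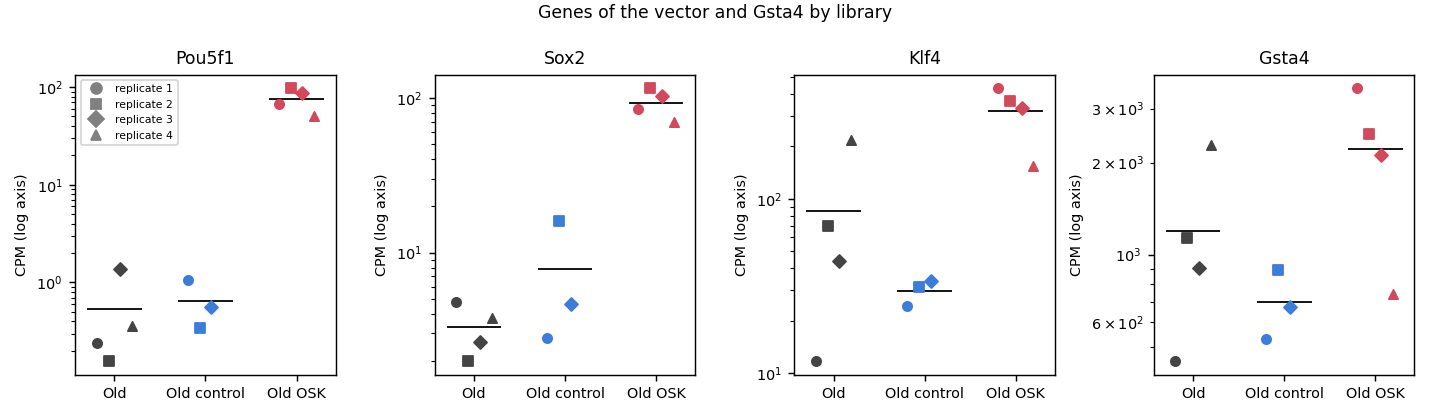
Level of Pou5f1, Sox2, Klf4 and Gsta4 in each library of Old, Old control and Old OSK (CPM, log axis), with replicate numbers as symbols and the group mean as a line. Old OSK lies above Old without overlap for Pou5f1 and Sox2, while for Klf4 and Gsta4 Old replicate 4 stands above Old OSK replicate 4.

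Across all genes, 104 were called higher in Old OSK than in Old (0.652% of those tested) and 30 were called lower (0.188%), at an adjusted p under 0.05. The difference was at least 1 on the log2 scale for 70 of the genes called higher and for 13 of those called lower. The 70 include Pou5f1, Sox2 and genes nearly silent in Old, such as Spink2 (log2 5.96). Genes of that kind were tested only through the libraries in which they are high, so the sizes in the 2 directions are not compared. The 2 groups did not overlap for 102 of the 104 and for 29 of the 30, against 3.7% and 4.45% of all tested genes without overlap in the higher and lower direction. The genes were called from these same libraries, so a lack of overlap describes them and adds no support to the calls. The median log2 fold change of all tested genes was 0.06. One library had a large part in these counts. Without Old replicate 4, 470 genes were called higher (2.96%) and 575 lower (3.62%), and all 104 and all 30 were among them. Without Old OSK replicate 4 the counts were 121 (0.763%) and 52 (0.328%), with 91 and 19 of the same genes. Without replicate 4 of both groups, a choice made after seeing the data, 957 were higher (6.09%) and 1129 lower (7.18%). DESeq2, fitted to all libraries, called 219 higher (1.37%) and 235 lower (1.47%). Leaving out 1 of the other 6 libraries lowered the counts to between 46 and 60 higher and between 4 and 6 lower. In all 8 such fits 42 of the genes called higher and 3 of the genes called lower stayed called.

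**Figure D2:**
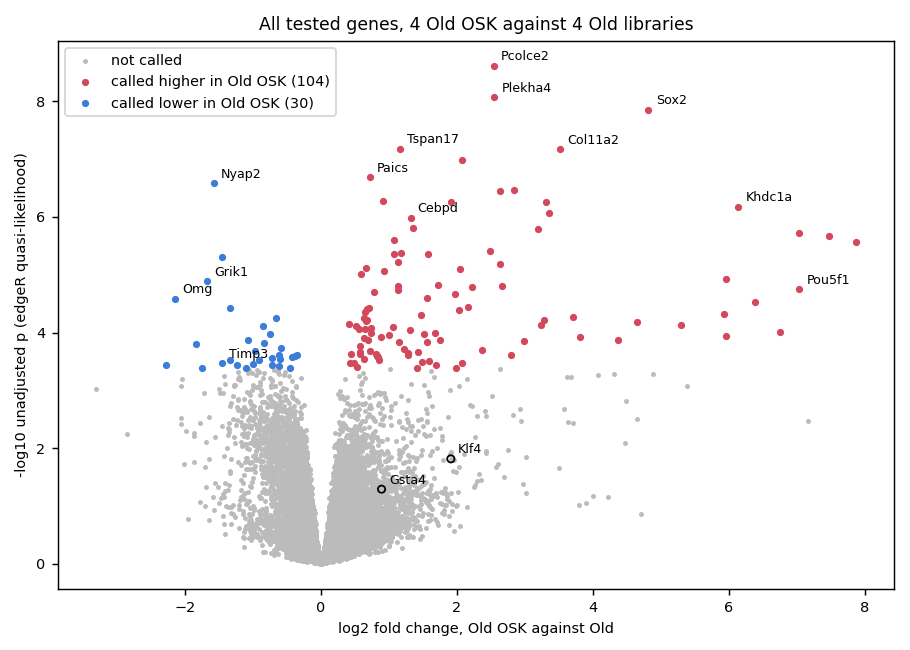
Log2 fold change of each of the 15944 tested genes (Old OSK against Old) against its unadjusted p on a -log10 scale, with the 104 genes called higher in red, the 30 called lower in blue and open circles on Klf4 and Gsta4. Several of the largest increases are of Pou5f1 or of genes nearly silent in Old, tested only through the libraries in which they are high. Klf4 and Gsta4 lie among the genes not called.

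Of the leading increases among genes whose mean log2 CPM was 3 or more, those of the matrix and the cell surface are given first. Pcolce2, an enhancer of the proteinase that trims procollagens, had the lowest p of all genes. It measured 36.4, 31.7, 30.0 and 20.7 CPM in Old and 122, 206, 215 and 149 CPM in Old OSK, so that the lowest treated library was more than 3 times the highest untreated one. The increase was 5.83-fold (log2 2.54 ± 0.22, edgeR adjusted p = 3.83e-05). Col11a2, a chain of the fibrillar collagen XI of cartilage, measured 2.92, 5.70, 8.51 and 3.80 CPM in Old and 34.4, 75.7, 87.7 and 42.9 CPM in Old OSK (log2 3.52 ± 0.39, adjusted p = 0.000216). Again no library overlapped. Adam15, a membrane-bound metalloproteinase with a disintegrin domain, measured 32.7, 51.6, 42.5 and 54.8 CPM in Old and 107, 139, 129 and 89.9 CPM in Old OSK (log2 1.35 ± 0.19, adjusted p = 0.00145). Tspan17, a tetraspanin of the cell membrane, measured 17.5, 20.8, 21.8 and 21.4 CPM in Old and 44.3, 52.6, 48.2 and 37.5 CPM in Old OSK (log2 1.16 ± 0.13, adjusted p = 0.000216). For these 4 genes Old OSK replicate 1 or replicate 4 was the lowest treated library and still stood above every untreated one.

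The other leading increases had more varied roles. Plekha4, a phosphoinositide-binding adaptor, measured 6.27, 8.41, 10.6 and 5.11 CPM in Old and 27.7, 56.6, 56.6 and 36.8 CPM in Old OSK, a 5.84-fold difference (log2 2.55 ± 0.24, edgeR adjusted p = 6.68e-05). The groups did not overlap. Paics, an enzyme of purine synthesis, had nearly equal untreated libraries, at 176, 184, 173 and 170 CPM, against 266, 336, 301 and 251 CPM in Old OSK (log2 0.72 ± 0.09, adjusted p = 0.000467). Litaf, a protein of late endosomes and lysosomes, rose from 27.4 ± 2.00 to 51.5 ± 7.09 CPM (log2 0.91 ± 0.12, n = 4 each, edgeR adjusted p = 0.000681). The untreated libraries differed little among themselves for both genes. Cebpd, a transcription factor of acute-phase and stress responses, measured 19.3, 21.4, 24.3 and 24.5 CPM in Old and 50.2, 59.5, 52.4 and 60.7 CPM in Old OSK (log2 1.32 ± 0.18, adjusted p = 0.00103). Its level in Old control replicates 1 to 3 was 26.7, 51.1 and 35.5 CPM, so that 1 vector-only library lay within the Old OSK range. All 9 increases named here, Sox2 included, were called in each of the 8 fits that left out 1 library.

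Nyap2, a neuronal phosphoprotein adaptor, had the lowest p among the genes called lower. It measured 38.1, 48.3, 38.0 and 39.9 CPM in Old and 12.5, 11.6, 15.8 and 15.1 CPM in Old OSK. It was 2.99-fold lower, without overlap (log2 -1.58 ± 0.19, edgeR adjusted p = 0.000522). Grik1, a subunit of kainate-type glutamate receptors, measured 37.6, 43.3, 47.7 and 42.5 CPM in Old and 9.97, 9.60, 12.6 and 21.3 CPM in Old OSK (log2 -1.67 ± 0.28, adjusted p = 0.00593). The highest treated library, replicate 4, was still below the lowest untreated one. Omg, a myelin glycoprotein, measured 14.9, 36.1, 33.0 and 14.97 CPM in Old and 6.58, 4.61, 5.40 and 5.61 CPM in Old OSK (log2 -2.15 ± 0.38, adjusted p = 0.00927). 1110002E22Rik, which carries no gene name, fell by 1.46 on the log2 scale (adjusted p = 0.00286). Nyap2, Grik1 and 1110002E22Rik stayed called in all 8 fits without 1 library, and Omg in 7 of 8, the exception being Old OSK replicate 2 (adjusted p = 0.0522).

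The remaining named decreases were smaller or less stable. Bdnf, a neurotrophin, measured 22.2, 22.3, 22.9 and 13.7 CPM in Old and 12.7, 9.60, 10.6 and 11.8 CPM in Old OSK (log2 -0.86 ± 0.17, edgeR adjusted p = 0.0189). Old replicate 4 was the lowest untreated library and lay just above the treated range. Timp3, a metalloproteinase inhibitor deposited in Bruch's membrane, was by far the most abundant, at 3474, 3411, 3862 and 2127 CPM in Old and 1368, 746, 1325 and 1259 CPM in Old OSK (log2 -1.45 ± 0.32, adjusted p = 0.0447). Here too Old replicate 4 was the nearest to the treated libraries. Slc39a12, a zinc transporter, fell from 176 ± 37.1 to 89.9 ± 12.1 CPM (log2 -0.97 ± 0.21, n = 4 each, edgeR adjusted p = 0.0345). Pdpr, which regulates the phosphatase of pyruvate dehydrogenase, Wscd1, Pde4dip, a scaffold of the Golgi and centrosome, and Fgd4, a guanine nucleotide exchange factor, fell by 0.67, 0.76, 0.85 and 0.59 on the log2 scale (adjusted p 0.0158 to 0.0318). Timp3 and Slc39a12 stayed called in 1 of the 8 fits without 1 library, the one without Old replicate 4 (adjusted p = 0.0162 and 0.0115), and in the other fits their adjusted p reached 0.189 and 0.168. Wscd1, Pde4dip and Fgd4 stayed called in the fits without Old replicate 4 or Old OSK replicate 4 (adjusted p 0.0105 to 0.0329), and Bdnf and Pdpr in these and 1 more.

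**Figure D3:**
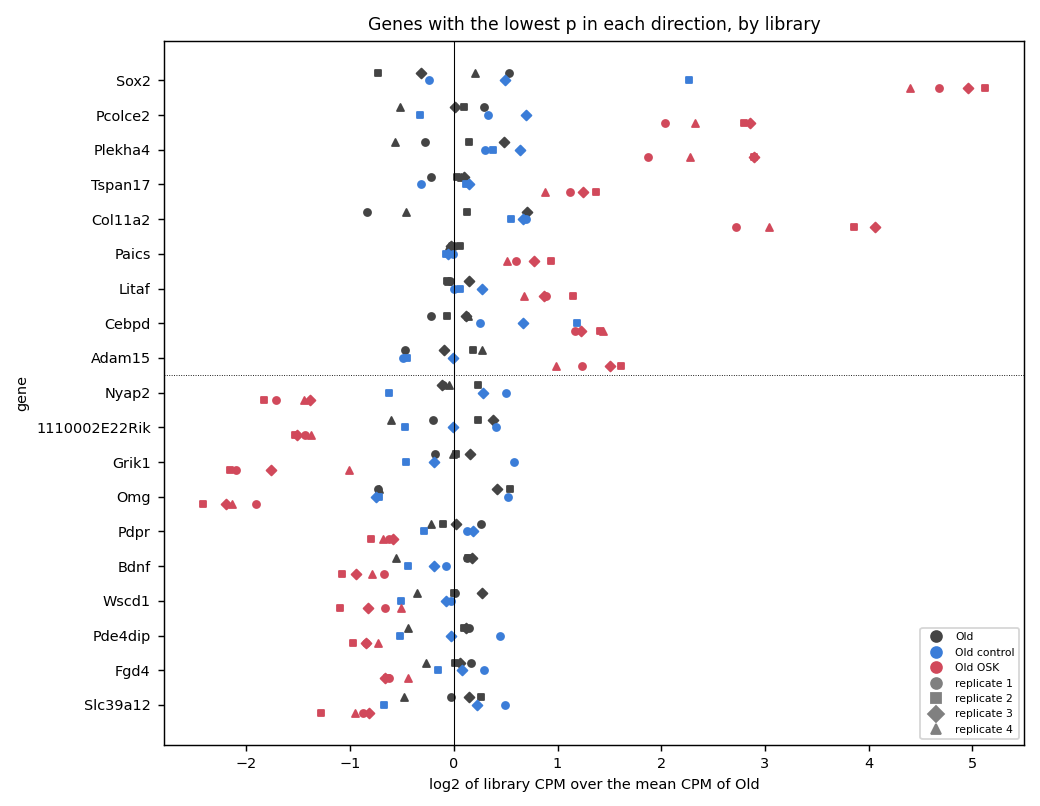
Level of 9 genes called higher and 10 called lower, those of lowest p, as log2 of each library's CPM over the mean CPM of the Old libraries, with colour for the group and symbol for the replicate. The 4 Old OSK libraries lie to the right of all Old libraries for the 9 upper genes and to the left for the 10 lower genes, and for Cebpd 1 Old control library reaches the Old OSK libraries.

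Values against the vector-only libraries are given beside these, although that comparison uses the same Old OSK libraries and is no independent check. Old control replicates 2 and 3 also have an M in the library name, with Y-linked transcripts at 185.8 and 198.9 CPM summed. In Old OSK only replicate 4 has it, and in Old none. The part of M in the values against Old control was not tested. In all, 65 genes were called higher (0.408%) and 51 lower (0.32%) against Old control. Against Old control, Pcolce2 was higher by 2.25, Col11a2 by 2.89, Plekha4 by 2.10, Adam15 by 1.66, Tspan17 by 1.17, Litaf by 0.79 and Paics by 0.76 on the log2 scale (edgeR adjusted p 0.00092 to 0.00729). Cebpd was higher by 0.56, which did not pass (adjusted p = 0.0976). Among the decreases, Nyap2 differed by -1.71 (adjusted p = 0.00118), Grik1 by -1.72 (adjusted p = 0.0106) and Omg by -1.97 (adjusted p = 0.0268). Timp3 differed by -1.44, Bdnf by -0.64 and Wscd1 by -0.57, none of which passed (adjusted p 0.0588, 0.0733 and 0.0756). For these last 3 genes the part of the vector itself in the difference from Old was not tested further.

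Some genes nearly silent in untreated RPE had counts in Old OSK, and were picked after their values were seen. Khdc1a and Khdc1c, RNA-binding genes of oocytes and early embryos, had 13 and 4 counts in the 4 Old libraries together and 783 and 684 in the 4 Old OSK libraries. Eif4e1b, an oocyte form of the cap-binding translation factor, had 8 and 973 counts, and Spink2, a protease inhibitor of the male germ line, 12 and 678. In each of these genes the lowest Old OSK library had at least 90 counts and the highest Old library at most 10. Bglap2, an osteocalcin gene, had 10 and 2045 counts, but its near-identical copies Bglap and Bglap3 can exchange reads with it, so the locus is uncertain. These genes entered the tested set only through the libraries in which they are high, so no test is given for them. Not every gene of low count went this way. Khdc1b, of the same family, had 21 counts in Old and 2 in Old OSK, and Dppa2, another early embryonic gene, 9 and 2. Nmu, a neuropeptide gene, measured 1.10, 0.888, 3.47 and 2.24 CPM in Old and 76.2, 199, 113 and 93.1 CPM in Old OSK (adjusted p = 0.0143), but 112 CPM in Old control replicate 3, which carries no OSK genes. That library stood with the treated ones for Nmu, while the other 2 vector-only libraries were at 3.01 and 3.25 CPM.

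Many genes of the pluripotency network had few counts or none in these libraries. Of 26 genes listed for pluripotency and early reprogramming, 15 had enough counts to be tested and none was called higher or lower by edgeR or by DESeq2. There was also no call in edgeR without Old replicate 4 or without Old OSK replicate 4. Of the 15, 13 had a positive difference (57.6% of all tested genes did), with a median log2 difference of 0.59. At an unadjusted p under 0.05, 1 member was higher and none lower (6.49% and 9.19% of all genes). That member, Fgf4, a growth factor gene known as a shared target of Oct4 and Sox2, had 0, 0, 6 and 0 counts in Old and 19, 42, 26 and 40 in Old OSK, and it too was tested only through the libraries in which it is high. Nanog, a core pluripotency factor, had 1 count in the 4 Old and 14 in the 4 Old OSK libraries, and Zfp42, Utf1 and Tdgf1 had at most 7 in either group. These totals are too low to compare the groups.

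RefSeq's table of promoters (GRCm38.p6, from 250 bases before to 50 after each start) held 77 of the 104 genes called higher and 25 of the 30 called lower. It was searched on both strands for the octamer ATGCAAAT, the Sox core ACAATG and the Klf-type box GGGTGTGG, none of which contains another. Among genes called higher, 3 (3.9%) held the octamer, 8 (10.4%) the Sox core and 6 (7.79%) the Klf-type box. Among genes called lower the numbers were 0, 6 (24%) and 1 (4%). Of the 12509 tested genes with a promoter in the table, 1.63%, 9.3% and 4.61% held them, and of all 32851 promoters 1.74%, 12.6% and 3.56%. A gene could have several promoters in the table, on average 1.27 for the genes called higher, 1.6 for those called lower and 1.27 for all tested genes. These 3 are shown because they belong to genes called higher and hold a word in capitals, Tspan17 at chr13:54789155-54789454, Avil, an actin-binding villin family gene, at chr10:127000459-127000758, and C1ra, a complement protease, at chr6:124512371-124512670, all on the plus strand and printed 5′ to 3′.
Tspan17: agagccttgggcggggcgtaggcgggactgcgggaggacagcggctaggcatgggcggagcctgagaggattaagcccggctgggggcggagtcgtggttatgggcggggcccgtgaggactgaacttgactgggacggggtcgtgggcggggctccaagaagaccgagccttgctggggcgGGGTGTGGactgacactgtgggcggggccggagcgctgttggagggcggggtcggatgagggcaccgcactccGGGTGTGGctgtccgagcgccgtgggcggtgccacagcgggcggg
Avil: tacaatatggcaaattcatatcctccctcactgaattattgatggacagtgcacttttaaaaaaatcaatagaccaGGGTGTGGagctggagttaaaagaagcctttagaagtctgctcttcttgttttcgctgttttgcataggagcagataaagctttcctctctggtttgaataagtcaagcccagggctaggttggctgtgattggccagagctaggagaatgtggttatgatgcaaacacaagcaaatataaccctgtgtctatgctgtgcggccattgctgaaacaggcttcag
C1ra: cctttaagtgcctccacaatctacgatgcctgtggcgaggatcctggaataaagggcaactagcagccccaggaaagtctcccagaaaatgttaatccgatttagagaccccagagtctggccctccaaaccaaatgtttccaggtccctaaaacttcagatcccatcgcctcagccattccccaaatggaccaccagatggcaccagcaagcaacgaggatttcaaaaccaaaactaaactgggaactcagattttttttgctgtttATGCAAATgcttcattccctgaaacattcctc
The Tspan17 promoter held the Klf-type box at 2 positions. Avil, with the same word once, measured 0.766, 2.30, 2.52 and 2.90 CPM in Old and 21.1, 24.4, 18.8 and 13.4 CPM in Old OSK, without overlap (log2 3.18 ± 0.44, edgeR adjusted p = 0.00145). A match describes letters in the sequence and does not show that a factor bound there.

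In edgeR complement was the pathway list with the most members called, while DESeq2 called 5 of them and 6 of the p53 list higher (1.37% of all genes). Of 20 tested members 4 were called higher and none lower in edgeR (background 0.652% and 0.188%). At an unadjusted p under 0.05, 9 were higher and 1 lower (background 6.49% and 9.19%). The list's median log2 difference was 0.67 against 0.06 for all genes. C1ra and C1s1 encode the proteases of the C1 complex. C1ra measured 9.82, 11.3, 12.8 and 10.5 CPM in Old and 17.2, 28.1, 31.2 and 23.97 CPM in Old OSK (log2 1.18 ± 0.18, edgeR adjusted p = 0.00271), and C1s1 rose by a similar 1.12 ± 0.19 (adjusted p = 0.00714). C4b, the component that C1 cleaves, measured 99.1, 77.4, 82.1 and 93.1 CPM in Old and 185, 349, 294 and 232 CPM in Old OSK (log2 1.59 ± 0.35, adjusted p = 0.0427). Serping1, the inhibitor of C1, measured 39.2, 25.6, 37.7 and 39.1 CPM in Old and 78.9, 129, 107 and 80.4 CPM in Old OSK (log2 1.48 ± 0.33, adjusted p = 0.0431). None of these 4 genes overlapped between the groups, which adds no support to their calls. Of the 20 tested members 6 were higher without overlap and none lower (3.7% and 4.45% of all tested genes). The fit without Old replicate 4 called 5 members higher (background 2.96%) and that without Old OSK replicate 4 called 3 (background 0.763%). C1ra and C1s1 stayed called in all 8 fits without 1 library, Serping1 in 2 (without Old replicate 4, adjusted p = 0.0251, or Old OSK replicate 4, adjusted p = 0.0495) and C4b in 1 (without Old replicate 4, adjusted p = 0.0268).

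The rise did not extend to every complement gene. Clu, or clusterin, an abundant RPE transcript, measured 6819 CPM in Old and 5415 CPM in Old OSK on average and was not called (edgeR adjusted p = 0.559). Clu made up most of the sum, and the summed level of the list was not higher in Old OSK (6385 to 7384 CPM) than in Old (5687 to 9110 CPM). Against Old control, none of the 4 called genes passed in edgeR (log2 differences 0.57 to 1.11, adjusted p 0.0656 to 0.361), and Old control replicate 3 had a C4b level of 315 CPM, within the Old OSK range. Macrophage and microglia markers, 3 of which are C1q chains also in the complement list, summed to 784 to 1305 CPM in Old and 876 to 1095 CPM in Old OSK. Of these 14 markers 13 had a positive difference (57.6% of all tested genes did), and the median log2 difference was 0.61 (0.06 for all genes). The exception, Csf1r (values given below), made up a large part of the sum in Old. The sums therefore do not show the higher values of the others. None of the 14 was called by edgeR, and 6 were higher and 1 lower at an unadjusted p under 0.05 (background 6.49% and 9.19%). DESeq2 called 1 higher and 1 lower (background 1.37% and 1.47%). The part of these markers in the complement result was not tested.

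Genes of the p53 pathway and senescence rose in part. Of 29 tested members edgeR called 3 higher (0.652% of all genes) and none lower, 11 were higher (6.49% of all genes) and none lower at an unadjusted p under 0.05, and the median log2 difference was 0.55. There were 6 calls, all higher, without Old replicate 4 (background 2.96%) and 3 without Old OSK replicate 4 (background 0.763%). Bax, a pro-apoptotic pore former, measured 27.2, 27.4, 30.8 and 27.1 CPM in Old and 36.8, 45.2, 46.7 and 38.7 CPM in Old OSK (log2 0.57 ± 0.12, edgeR adjusted p = 0.0297). Ccng1, a cyclin and classic p53 target, measured 83.0, 81.1, 77.1 and 102 CPM in Old and 117, 155, 130 and 109 CPM in Old OSK (log2 0.57 ± 0.12, adjusted p = 0.036), and its lowest treated library, replicate 4, was near Old replicate 4. Trp53inp1, a p53-induced regulator of autophagy and cell death, measured 12.98, 14.6, 13.6 and 13.9 CPM in Old and 23.8, 27.2, 23.1 and 24.8 CPM in Old OSK (log2 0.84 ± 0.19, adjusted p = 0.0414). The groups did not overlap for any of these 3 called genes, which adds no support to their calls. Of the 29 tested members 10 were higher without overlap and none lower (3.7% and 4.45% of all tested genes). Cdkn1a, the cell-cycle inhibitor p21, measured 9.44, 32.8, 25.8 and 64.4 CPM in Old and 111, 127, 116 and 64.9 CPM in Old OSK, and was not called (Old replicate 4 and Old OSK replicate 4 were nearly equal; log2 1.65 ± 0.51, adjusted p = 0.137). Without Old replicate 4 Cdkn1a was called (log2 2.20, adjusted p = 0.0228). Bax stayed called in 3 of the 8 fits without 1 library, Ccng1 in 2 and Trp53inp1 in 1, the last without Old replicate 4 (adjusted p = 0.0268). Against Old control these 3 genes differed by 0.33, 0.26 and 0.25, none of them called (edgeR adjusted p 0.13 to 0.46), and Trp53inp1 reached 31.3 CPM in Old control replicate 2.

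Class I antigen presentation gave 1 call in edgeR among 23 tested genes (0.652% of all genes) and 2 in DESeq2 (1.37%), with 10 members higher (6.49% of all genes) and none lower at an unadjusted p under 0.05 and a median of 0.45. Calls, all higher, numbered 2 without Old replicate 4 (background 2.96%) and 1 without Old OSK replicate 4 (background 0.763%). B2m, the light chain of class I molecules, measured 528, 452, 505 and 359 CPM in Old and 823, 754, 757 and 663 CPM in Old OSK (log2 0.70 ± 0.13, edgeR adjusted p = 0.0123). Old replicate 4 was the lowest of all. The heavy chains H2-K1 and H2-D1 measured 258 and 262 CPM in Old and 460 and 463 CPM in Old OSK on average, short of the threshold (adjusted p = 0.1 and 0.186), and they can exchange reads with other class I genes. B2m stayed called in 4 of 8 fits without 1 library. Among chemokines and macrophage growth factors 1 of 19 tested was called higher (0.652% of all genes). That gene, Il34, a ligand of the macrophage receptor Csf1r, measured 3.35, 3.03, 3.34 and 5.47 CPM in Old and 10.8, 14.4, 15.4 and 8.90 CPM in Old OSK (log2 1.70 ± 0.38, adjusted p = 0.0463). It stayed called in 2 fits, without Old replicate 4 (adjusted p = 0.0189) and without Old OSK replicate 4 (adjusted p = 0.0441). Csf1r itself measured 391 CPM in Old and 198 CPM in Old OSK on average and was not called with all libraries (adjusted p = 0.118), but was called lower without Old replicate 4 (adjusted p = 0.0271).

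Each of the redox and detoxification lists gave at most 1 call in edgeR (0.652% of all genes were called higher). Among 22 tested glutathione S-transferases Gstm5 was called higher, at 78.6, 71.7, 77.2 and 60.1 CPM in Old and 217, 319, 247 and 185 CPM in Old OSK (log2 1.75 ± 0.36, edgeR adjusted p = 0.0257). Old control replicate 3 had 352 CPM, above every Old OSK library, and the difference of Gstm5 between Old OSK and Old control was 0.49 (log2, adjusted p = 0.447). Among 26 other antioxidant genes Prdx1, a peroxiredoxin that reduces hydrogen peroxide, was called, at 319, 322, 307 and 306 CPM in Old and 516, 554, 494 and 397 CPM in Old OSK (log2 0.65 ± 0.12, adjusted p = 0.0134). Among 22 genes of aldehyde detoxification Cbr3, a carbonyl reductase, was called (log2 0.57 ± 0.12, adjusted p = 0.0373). DESeq2 called 1 transferase, 3 of the other antioxidant genes and 1 aldehyde gene higher (1.37% of all genes). None of 20 genes of glutathione synthesis and glutathione peroxidases was called by edgeR, where 2 were higher and 4 lower at an unadjusted p under 0.05 (6.49% and 9.19% of all genes), and DESeq2 called 1 higher. When Old replicate 4 was left out, edgeR called 3 transferases, 5 other antioxidant genes, 3 aldehyde genes and 2 glutathione genes higher (background 2.96%). It called 1 aldehyde and 1 glutathione gene lower (background 3.62%). Without Old OSK replicate 4 it called 1, 3, 0 and 1 higher (background 0.763%) and none lower. Gstm5 stayed called in 2 of the 8 fits without 1 library, Prdx1 in 4 and Cbr3 in 1, each including the fit without Old replicate 4 (adjusted p 0.0164 to 0.0237).

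The genes of the visual cycle were lower in most treated libraries without passing over all genes. Of 13 members none was called by edgeR. At an unadjusted p under 0.05, 9 were lower and none higher (background 9.19% and 6.49%). DESeq2 called 5 lower (background 1.47%), and the median log2 difference was -0.95. Rpe65, the isomerase of the cycle, measured 3724, 4313, 3746 and 2171 CPM in Old and 2109, 1189, 1713 and 1919 CPM in Old OSK (log2 -1.01 ± 0.29, edgeR adjusted p = 0.121). Lrat, which esterifies retinol, measured 3315, 3225, 2837 and 2397 CPM in Old and 1645, 575, 1141 and 1219 CPM in Old OSK (log2 -1.36 ± 0.43, adjusted p = 0.151). Both genes were lower in each Old OSK library than in each Old library, and Old replicate 4 was the nearest to the treated range. Rdh10, a retinol dehydrogenase, differed by -1.23 and Rrh, the RPE opsin peropsin, by -1.03 (adjusted p = 0.122 and 0.107). Without Old replicate 4, 6 of the 13 were called lower (background 3.62%) and the median was -1.07, and without Old OSK replicate 4 none was called.

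The summed level of the visual cycle list was 53420, 51660, 52570 and 29700 CPM in Old and 33420, 16780, 25060 and 29510 CPM in Old OSK. Old replicate 4 stood with the treated libraries and apart from the other untreated ones. Old control showed the same kind of split, with 69820, 22530 and 59440 CPM in replicates 1 to 3. In bulk RNA, fewer RPE cells in a sample and less of these transcripts per cell cannot be told apart. Rod markers summed to 8611, 2584, 2557 and 6052 CPM in Old and 3357, 8910, 3410 and 17920 CPM in Old OSK. In Old control replicates 1 to 3 they summed to 4179, 21550 and 1991 CPM. None of the 14 was called by edgeR or DESeq2 or reached an unadjusted p under 0.05. All 14 had a positive difference between Old OSK and Old (57.6% of all tested genes did). Their median log2 difference was 0.79, and 0.06 without Old OSK replicate 4. The lowest visual cycle sum, Old OSK replicate 2 (16780 CPM), came with a rod sum of 8910 CPM. Old OSK replicate 4 had the highest rod sum (17920 CPM) and a visual cycle sum of 29510 CPM. Old replicate 1 had the highest sum of its group for both lists. The part of other retinal cells in the result was not tested. Of the 8 bipolar cell markers Gng13 alone was called higher (1.92 to 25.1 CPM on average, edgeR adjusted p = 0.0155).

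**Figure D4:**
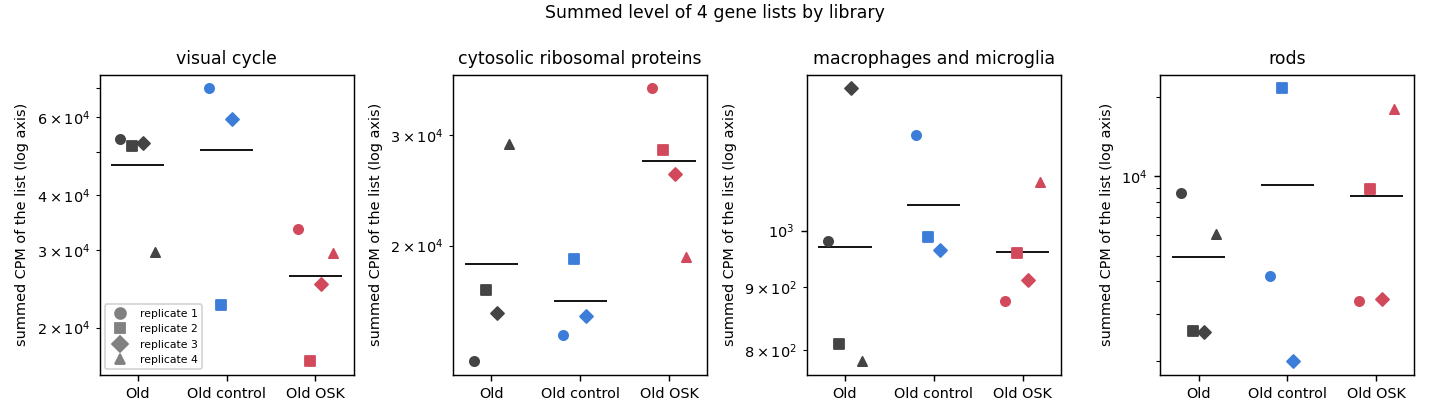
Summed CPM of 4 gene lists in each library (log axis), with the group mean as a line and symbols for replicates. Old replicate 4 has the lowest visual cycle sum and the highest ribosomal protein sum of the Old libraries and lies among the Old OSK libraries for both.

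Other genes of RPE function gave a similar picture of values below the threshold. Of 18 channels and transporters none was called by edgeR, and 10 were lower and 1 higher at an unadjusted p under 0.05, against 9.19% and 6.49% of all genes. DESeq2 called 2 lower and 1 higher (background 1.47% and 1.37%), and the median was -0.57. The lower members included Car14, a carbonic anhydrase (949 to 461 CPM on average, edgeR adjusted p = 0.0942), and the lactate transporter Slc16a1 (946 to 480 CPM, adjusted p = 0.153). Aqp1, a water channel, stood the other way, at 55.1 CPM in Old and 134 CPM in Old OSK (adjusted p = 0.126). Among 10 transcription factors of RPE identity, Lhx2 differed by -0.60 and Otx2 by -0.65 (edgeR adjusted p = 0.068 and 0.208), and the median was -0.02. None was called by edgeR, 3 were lower and none higher at an unadjusted p under 0.05, and DESeq2 called 1 lower (background 1.47%). The 16 melanin and melanosome genes had a median of -0.24 with none called by either tool and 6 lower at an unadjusted p under 0.05. In edgeR 5 channels and transporters, 1 transcription factor and 4 melanin and melanosome genes were called lower without Old replicate 4 (background 3.62%), and none without Old OSK replicate 4. Vegfa, the growth factor through which RPE maintains the choroidal vessels, measured 407, 492, 582 and 293 CPM in Old and 191, 130, 243 and 211 CPM in Old OSK, without overlap, and fell short of the threshold (log2 -1.19 ± 0.29, edgeR adjusted p = 0.0611), which it passed without Old replicate 4 (adjusted p = 0.0184).

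Cytosolic ribosomal proteins were the list whose number of calls changed most when Old replicate 4 was left out. Of 83 tested members none was called by edgeR or DESeq2 with all libraries, although 75 were higher at an unadjusted p under 0.05 (6.49% of all genes). A positive difference was seen for 81 (57.6% of all tested genes), with a median of 0.54. Their summed level was 13100, 17020, 15650 and 28970 CPM in Old and 35580, 28420, 25990 and 19160 CPM in Old OSK. Old replicate 4 exceeded 3 of the 4 treated libraries, and Old OSK replicate 4 was the lowest of its group. Without Old replicate 4, 74 of the 83 were called higher (background 2.96%) and the median was 0.82, and without Old OSK replicate 4 none was called. The 83 genes were read in the same libraries and are not independent measurements.

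The other lists held few called genes (0.652% of all genes were called higher and 0.188% lower). Ctsk, a lysosomal and matrix-degrading cathepsin, rose by 1.14 ± 0.18 on the log2 scale (edgeR adjusted p = 0.00342) and stayed called in all 8 fits without 1 library. Plin4, a lipid droplet coat protein, rose by 1.14 ± 0.23, Steap3, a ferrireductase of iron uptake, by 0.53 ± 0.12 and Anxa5, a phospholipid-binding annexin, by 0.42 ± 0.09 (adjusted p = 0.0268, 0.0482 and 0.0447). Each stayed called in 2 or 3 of the 8 fits. Bmi1, a subunit of polycomb repressive complex 1, was the only polycomb gene called among 28, at 88.2, 86.5, 92.6 and 85.4 CPM in Old and 65.7, 69.2, 65.5 and 70.5 CPM in Old OSK (log2 -0.38 ± 0.08, adjusted p = 0.038). The difference was small and the groups did not overlap, and it stayed called in 2 fits, without Old replicate 4 (adjusted p = 0.0217) or Old OSK replicate 4 (adjusted p = 0.0282). Nuclear genes of oxidative phosphorylation had a median of 0.00 over 82 members and those encoded by mitochondria -0.01 over 13. None was called by edgeR, and DESeq2 called 1 mitochondrial gene lower (background 1.47%). Of these 82 and 13 genes, 4 and 0 were higher and 1 and 2 lower at an unadjusted p under 0.05, against 6.49% and 9.19% of all genes. Leaving out Old replicate 4 gave higher calls for 2 of the 82 (background 2.96%) and no call among the 13, and leaving out Old OSK replicate 4 gave none. Replication and mitosis genes had a median of 0.47 over 32 members, with none called by either tool. At an unadjusted p under 0.05, 2 were higher (6.49% of all genes), and 1 was called higher without Old replicate 4 (background 2.96%).

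**Figure D5:**
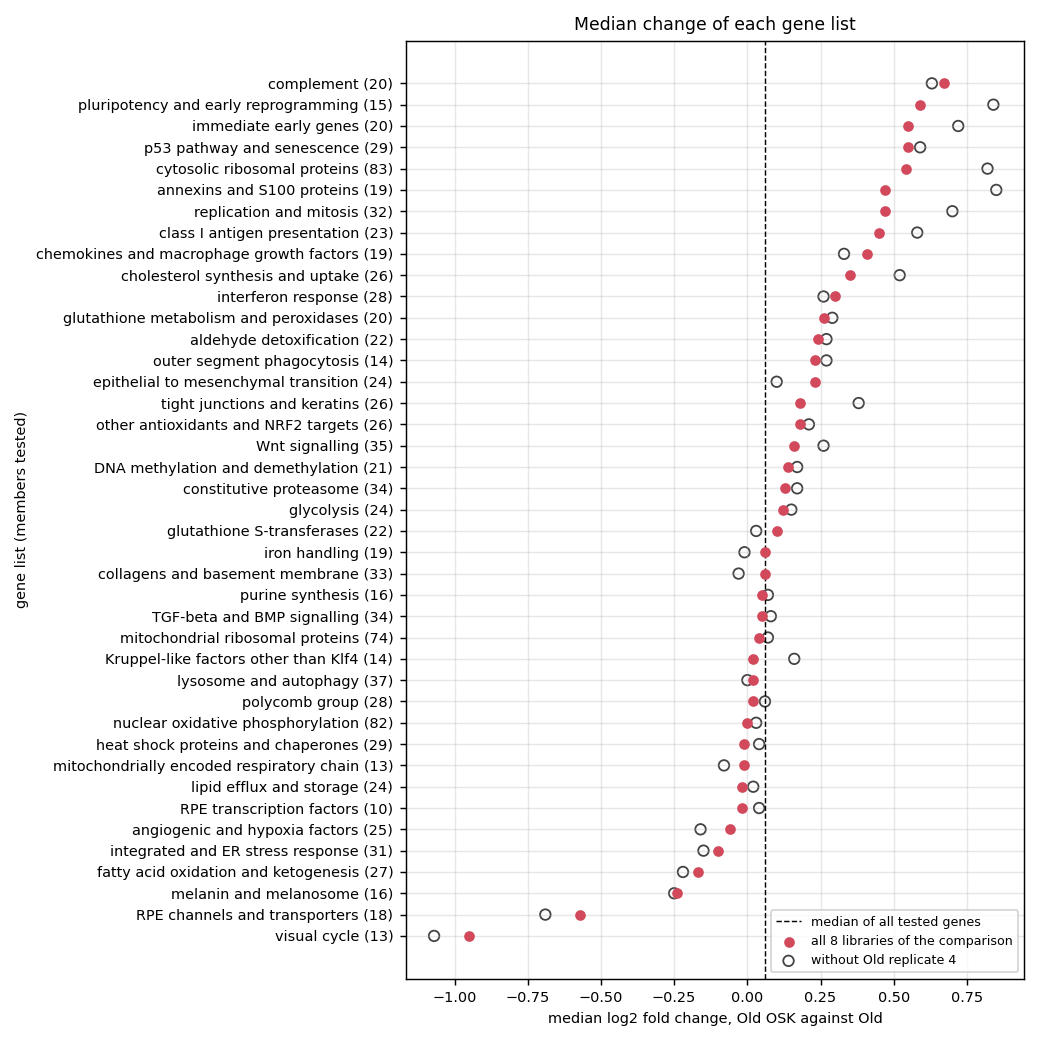
Median log2 fold change (Old OSK against Old) of each pathway list with all 8 libraries (filled) and without Old replicate 4 (open), the number of tested members in brackets and the median of all tested genes as a dashed line. Among these lists, with all 8 libraries, complement has the highest median (0.67) and the visual cycle the lowest (-0.95), and the ribosomal protein list moves from 0.54 to 0.82 without Old replicate 4.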

How the data were processed

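Polyadenylated RNA of mouse RPE went through SMART-Seq full-length cDNA amplification and Nextera XT library preparation, per the labels' protocols. What the authors deposited is a single table of unnormalized counts, with genes in rows and 18 libraries in columns. STAR 2.7.1a and featureCounts 1.6.2 are named in the submitters' processing notes, as are the builds GRCm38/mm10 beside GRCh38/hg38 without a role for each. Annotation and strand setting are not given in the sources used here, so reads of near-identical or antisense genes may be mixed. Of 21859 rows, 1096 were at 0 in every library and 24 symbols were shared by several rows.

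Groups were taken from the titles. Using edgeR 4.0.16, genes passed filterByExpr at a minimum count of 10 and total of 15, were scaled by TMM and fitted over all 18 libraries with 4 group means by glmQLFit and glmQLFTest in R 4.3.3. Benjamini-Hochberg adjustment ran over 15944 genes, and a gene was called at an adjusted p under 0.05. Errors of log2 fold changes (SE) are approximate standard errors, taken as the size of the log2 fold change over the square root of the test's F statistic. They therefore rest on the spread estimated over all 18 libraries. CPM used TMM-scaled library sizes, and log2 CPM a prior count of 2. The procedure was tested on simulated data. Counts of PCR-amplified reads make counting error a lower limit.

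The genes named are Pou5f1, Sox2, Klf4 and Gsta4, the 10 of lowest p among called genes, higher and lower, and the 5 largest called changes at a mean log2 CPM of at least 3, and up to 3 members of each list with the lowest p. A few genes named by it are not reported here. Other genes, and all genes named from raw counts, were picked after their values were seen. The gene lists (41 pathways and 16 cell types) and this rule were chosen with earlier results of these data known, so a list's direction is no independent support, and no set test was run. Replicate pairs differed more than counting error allows (chi-square of 22.1 or more per gene), so none was merged. Deviations from group means of equally numbered libraries correlated by -0.381, -0.116, 0.185 and -0.491, so the numbers do not pair the libraries. Alternatives were median-ratio size factors, no filter, a mean of at least 50 counts, robust empirical Bayes, DESeq2 1.42.0, the 8 libraries alone, M in the library name as a covariate, a replicate block, each library left out, and replicate 4 of both groups left out (chosen after seeing the data).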

Additional observations from a re-analysis of the deposited data

Results flagged for a closer look

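Among 110 groups of 4 examined, 9 held a library far from the other 3, where chance flags about 1 in 20 (5%). Old replicate 3 stood above the other Old libraries for Pou5f1 (1.39 CPM), Litaf (30.4 CPM) and Bax (30.8 CPM), in each case below every Old OSK library. Old replicate 4 stood below the other Old libraries for Bdnf (13.7 CPM), Pde4dip (183 CPM) and the summed RPE markers (27020 CPM). It stood above them for Il34 (5.47 CPM) and the summed neutrophil markers (15.75 CPM, with 5 of 9 markers at 0). Old OSK replicate 4 stood apart in its summed Y-linked transcripts (156.8 CPM).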

How the results depend on the processing

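Direction was the same as in the main analysis for every gene of the naming rule under every alternative that tested it, but calls depended on the settings. Genes named outside the rule were not part of this check. Main counts were 104 genes higher and 30 lower, with 18 and 2 list members among them. DESeq2 called 219 and 235 (list members 30 and 17), and the 8 libraries alone gave 64 and 10 (9 and 1). Median-ratio size factors gave 16 lower (list members 1), no filter 14 lower (list members 10 and 0), the M covariate 16 lower (list members 0) and the filter at a mean of 50 counts 4 list members lower. With the replicate number as a block, 1 gene was called higher and 0 lower (list members 0 and 0), with 623 and 1057 at an unadjusted p under 0.05. Pou5f1 was then at 7.28 and Sox2 at 4.83, not called. The numbers do not pair the libraries, so this is no measure of a weaker effect. Leaving out 1 library gave 46 to 470 higher and 4 to 575 lower (list members 5 to 122 and 0 to 44). Leaving out replicate 4 of both groups gave 957 and 1129 (list members 173 and 68). Klf4 lay between 1.54 and 2.94 and Gsta4 between 0.55 and 1.42 without 1 library, each called only without Old replicate 4, and at 3.13 and 1.66, called, without replicate 4 of both groups. The causes were not tested. Genes with a few counts per library allow no comparison. The part of the injection and vector in this comparison cannot be told apart from OSK without the vector-only libraries. These number 3, and replicates 2 and 3 of them have M in the name.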
